A study of Drosophila melanogaster with 6 samples.

Results

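Odorant binding protein (Obp) genes were described in the head transcriptomes of both control groups of a fly study of 16p12.1 homologs. All genes whose FlyBase symbol is Obp followed by a digit were taken, which gave 51 of the 17559 genes counted. The study knocked down single genes in neurons with RNAi and compared each knockdown with a control, and the 6 control libraries were analysed here. The Dicer2 25C control had the genotype w[1118], *Elav-GAL4* over w[1118] with a single copy of *UAS-Dicer2* and was kept at 25°C (n = 3). The RT control had the genotype w[1118], *Elav-GAL4* over w[1118], lacked *UAS-Dicer2* and was kept at room temperature, for which no value in degrees is given (n = 3). All flies were F1 females of crosses to the VDRC GD control stock v60000, without an RNAi construct, and their age is not stated in the sources used here. *Elav-GAL4* drives expression in all neurons, and Dicer2 is the enzyme that cuts long double-stranded RNA into small interfering RNA. Each of the 3 biological replicates was RNA from heads of 35 to 40 flies, which were frozen and vortexed to break heads from bodies. Driver stock, Dicer2 and temperature differed together between the groups and cannot be told apart.

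Insect Obps are small, secreted, soluble proteins held together by disulfide bonds between conserved cysteines. Support cells of chemosensory bristles (sensilla) release many of them into the lymph that bathes the dendrites of olfactory and taste neurons, where they bind odorants, pheromones or tastants, and others are made in glia, fat body, pharynx or reproductive tissue. Minus-C members have lost a pair of the conserved cysteines, Plus-C members carry extra ones, and double-domain members hold a tandem of Obp domains. In RNA from whole heads, fewer cells of a type and less RNA per cell cannot be told apart.

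The libraries held between 18651266 and 42487803 reads counted on genes, so that 3 reads corresponded to between 0.0706 and 0.161 counts per 1000000 reads (CPM), a floor that covers counting error only. This floor is on unadjusted library totals, while all levels are CPM on library totals adjusted by TMM. Replicate 1 of the Dicer2 25C control held 69361668 alignments that were not unique, against at most 8454145 in any other library, and these were not counted on genes. The 4 neuron markers summed to 3126 to 4248 CPM and the 5 eye markers to 54755 to 78501 CPM over the libraries. The 11 antennal markers measured summed to 14.7 to 45.5 CPM, most of it from *Antdh* and *Orco*, which were present in every library. *Or47b* was at 0 in all 3 RT libraries, but it gave only 2, 3 and 5 reads in the Dicer2 25C libraries and was not tested. Dicer2 25C replicate 3 stood apart in antennal genes, 5 members among them. Members whose test changed outcome when it was left out are given with both outcomes. In all lists of values below, replicates 1, 2 and 3 are given in that order.

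Obp transcripts were a small part of the head transcriptome. The 51 genes summed to 3171, 3444 and 4520 CPM in the Dicer2 25C control and to 3401, 3956 and 3944 CPM in the RT control, with means of 3712 ± 713 and 3767 ± 317 CPM (SD, n = 3 each). These sums were between 0.317% and 0.452% of the adjusted library total. The 6 highest members alone held between 87.2% and 88.1% of each sum. Of the 51 genes, 28 passed the expression filter of edgeR and 23 did not. In the Dicer2 25C control, 8 of the 28 had a mean over 100 CPM, 8 lay between 10 and 100 CPM and 12 lay under 10 CPM. In the RT control these numbers were 7, 9 and 12.

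**Figure D1:**
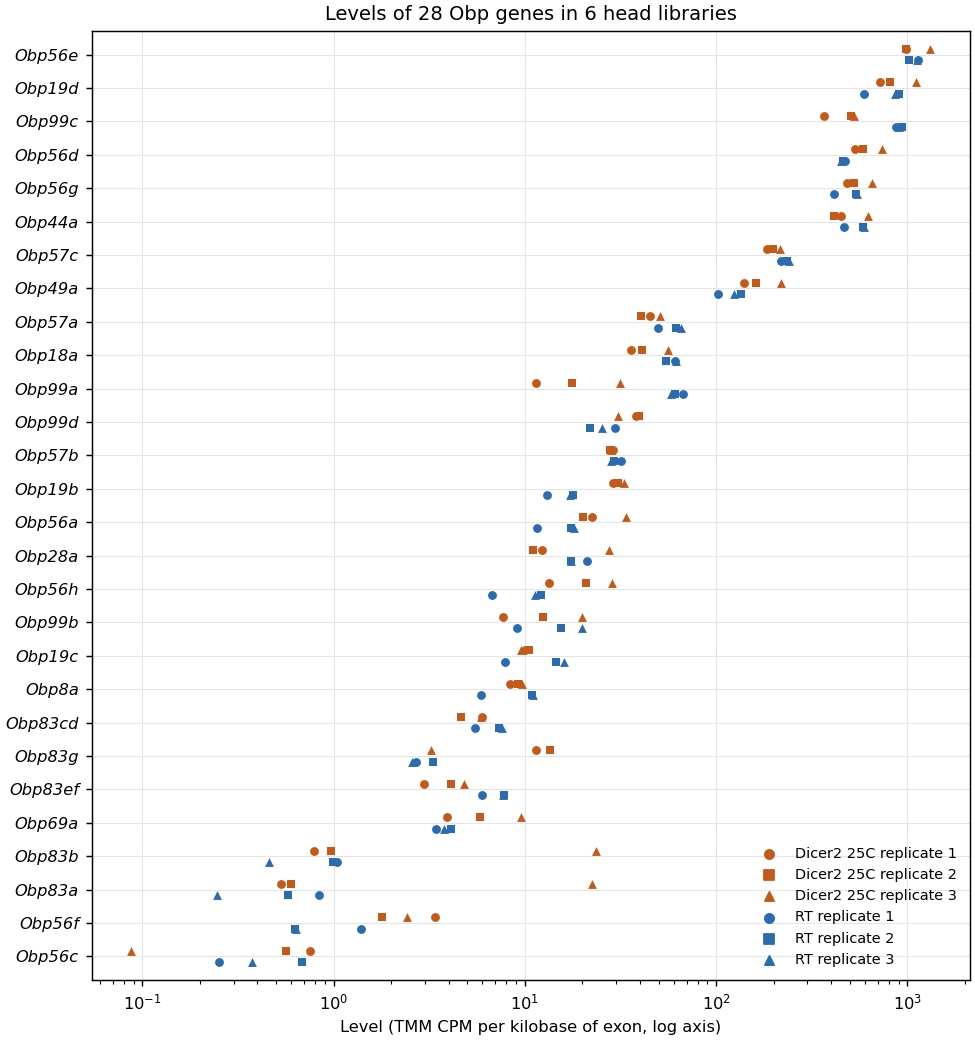
Level of each of the 28 Obp genes that passed the expression filter, in TMM CPM per kilobase of exon on a log axis. Points are single libraries (orange, Dicer2 25C control; blue, RT control; circle, square and triangle for replicates 1, 2 and 3). *Obp56e* heads the order in both groups, and Dicer2 25C replicate 3 lies far to the right of the other libraries for *Obp83a* and *Obp83b*.

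To compare genes with each other, levels were divided by exon length. *Obp56e* was highest in both groups, at 1093 ± 185 and 1093 ± 61.6 CPM per kilobase (SD, n = 3). Of its exon bases, 84.4% lie opposite an annotated antisense RNA, asRNA:CR44509, and the strand setting of the counting is not given in the sources used here. In the Dicer2 25C control it was followed by *Obp19d* (881 ± 207), *Obp56d* (618 ± 107), *Obp56g* (554 ± 87.3), *Obp44a* (495 ± 109.7) and *Obp99c* (466 ± 86.4), and the libraries of each of the first 5 of these 6 genes overlapped those of the next. In the RT control the order was *Obp56e*, *Obp99c* (902 ± 29.6), *Obp19d* (785 ± 169.9), *Obp44a* (549.7 ± 71.2), *Obp56g* (498 ± 73.4) and *Obp56d* (462 ± 11.6). There the lead of *Obp56e* over *Obp99c* was larger than the spread of the libraries, while the others overlapped their neighbours. The same 6 genes thus stood at the top of both groups, and in each group they did not overlap *Obp57c*, the next in order, at 199 ± 15.4 and 231 ± 12.4 CPM per kilobase. *Obp49a* was eighth, at 174 ± 41.3 and 120.0 ± 16.6 CPM per kilobase.

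Of the 6 most abundant members, *Obp99c* alone passed the test between the groups, and it is described further on. *Obp19d*, which is made around both olfactory and taste sensilla, was at 791, 894 and 1226 CPM in the Dicer2 25C control and at 650.3, 997 and 945 CPM in the RT control. *Obp56e* was at 523, 526 and 695 CPM and at 605, 544 and 595 CPM. *Obp44a*, a Minus-C member known from glia of the brain, was at 484, 446 and 667 CPM and at 503, 631 and 640.3 CPM. In each of these 3 genes the groups overlapped, and edgeR's quasi-likelihood test gave log2 fold changes, RT over Dicer2 25C, of -0.17, -0.00024 and 0.15 (adjusted p = 0.645, 0.999 and 0.601). *Obp56g*, a member of labellar taste bristles, was at 239, 261 and 323 CPM and at 204, 265 and 269.6 CPM, again with overlapping groups (log2 fold change -0.16, SE 0.15, adjusted p = 0.528). *Obp56d*, present in antenna and taste organs, was at 489, 540.5 and 679.8 CPM in the Dicer2 25C control and at 436, 425 and 415 CPM in the RT control. All 3 RT libraries lay below the Dicer2 25C libraries, but the difference did not pass the test (log2 fold change -0.42, SE 0.13, adjusted p = 0.086).

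The RT and Dicer2 25C controls were compared by edgeR's quasi-likelihood test over all 10187 genes that passed the filter, and a call needed an adjusted p under 0.05 together with a log2 fold change beyond 1 in either direction. Of the 28 members tested, 1 was called, *Obp99a*, where 2.82% of all tested genes were called. On the adjusted p alone, 4 members passed, 3 higher in the RT control (*Obp99a*, *Obp99c* and *Obp83ef*) and 1 lower (*Obp19b*), where 10.1% of all genes passed. The groups did not overlap in 11 of the 28 members, 4 higher and 7 lower in the RT control, against 37.5% of all tested genes. Log2 fold changes were negative for 15 members and positive for 13, with a median of -0.02 beside -0.0038 over all tested genes. With library totals in place of TMM scaling, the median of all genes moved to -0.10. A replicate is a pool of heads, and p-values measure the spread between such pools.

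**Figure D2:**
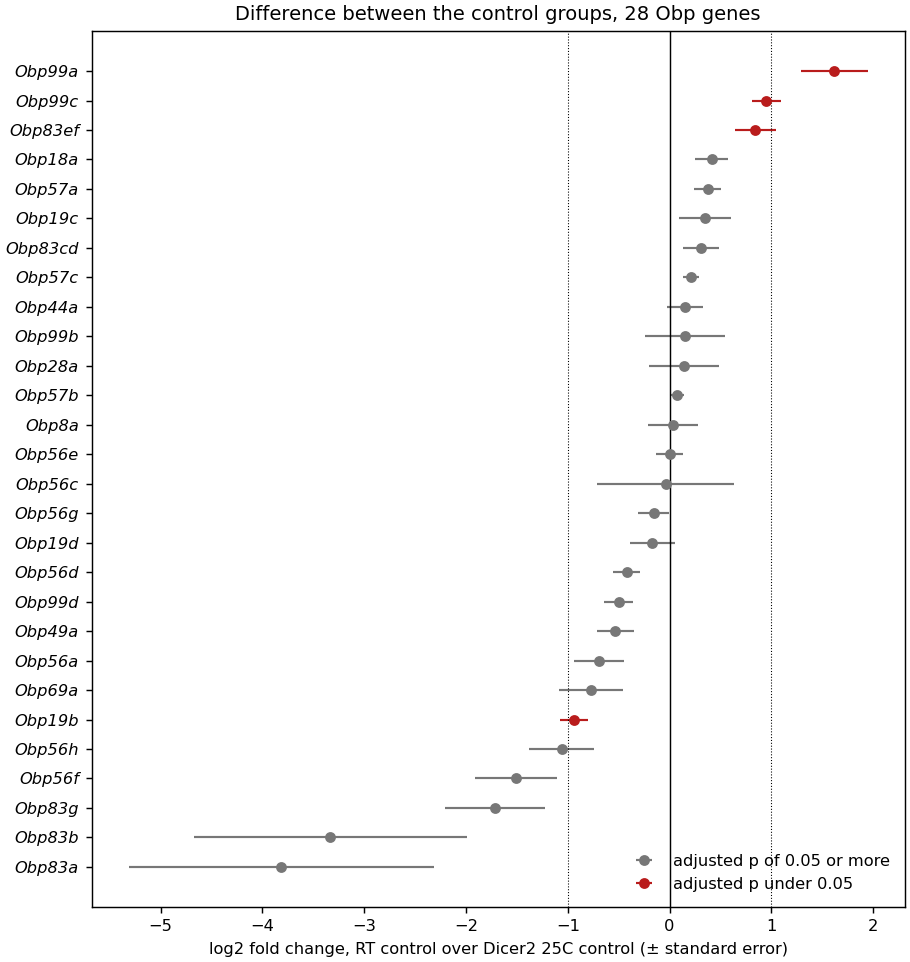
Log2 fold change of the RT control over the Dicer2 25C control for the 28 Obp genes tested, with bars of ± 1 standard error; dotted lines mark the threshold of 1. The 4 genes in red passed an adjusted p under 0.05, and *Obp83a* and *Obp83b* have the widest bars and the most negative values.

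Among the members that passed, *Obp99a* rose most (FBgn0039678, chromosome 3R from 29671657 to 29672334, plus strand, 2 exons; release 6 assembly, BDGP6.54 annotation). This Minus-C gene is made in support cells of antennal sensilla, among other places. It was at 6.96, 10.8 and 19.1 CPM in the Dicer2 25C control and at 40.8, 37.3 and 35.4 CPM in the RT control. Every RT library lay above every Dicer2 25C library, and the Dicer2 25C replicates also differed among themselves by 2.74 times. The log2 fold change was 1.62 (SE 0.33, adjusted p = 0.033). Its adjusted p rose to 0.061 and 0.131 without Dicer2 25C replicate 1 or 2, and to 0.08 and 0.09 without RT replicate 2 or 3. Without Dicer2 25C replicate 3 the log2 fold change was 2.08 (adjusted p = 0.0063).

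*Obp99c*, another Minus-C gene of the same chromosome region (FBgn0039682, chromosome 3R from 29685736 to 29689311, minus strand, 3 exons), was at 246, 339 and 352 CPM in the Dicer2 25C control. In the RT control it was at 584, 624 and 603 CPM, so that the groups did not overlap (log2 fold change 0.95, SE 0.15, adjusted p = 0.017). It thus moved from sixth to second in the order of levels per kilobase. Its adjusted p was 0.078 without Dicer2 25C replicate 2, 0.067 without RT replicate 2 and 0.072 without RT replicate 3. *Obp83ef* (FBgn0046876, chromosome 3R from 6109642 to 6111034, minus strand, 2 exons), a double-domain member, was at 2.67, 3.68 and 4.35 CPM and at 5.37, 6.97 and 6.91 CPM. It too was higher in all 3 RT libraries (log2 fold change 0.84, SE 0.20, adjusted p = 0.047). This value lay close to the threshold, and the adjusted p was between 0.114 and 0.146 without Dicer2 25C replicate 1 or 2 or without RT replicate 2 or 3, 0.065 with library totals only and 0.062 with upper quartile scaling. Its neighbour *Obp83cd*, the other double-domain gene, was at 5.39, 4.15 and 5.29 CPM and at 4.91, 6.57 and 6.85 CPM and did not pass the test (adjusted p = 0.275). *Obp83ef* and *Obp83cd* share 92 exon bases on opposite strands, 10.2% of each, and the strand setting of the counting is not given.

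*Obp19b*, which serves the taste of amino acids in labellar bristles, fell (FBgn0031110, chromosome X from 20416733 to 20417812, plus strand, 3 exons). It was at 18.5, 19.8 and 21.2 CPM in the Dicer2 25C control, where the replicates lay close together, and at 8.39, 11.5 and 11.1 CPM in the RT control (log2 fold change -0.94, SE 0.13, adjusted p = 0.015). The groups did not overlap, and the adjusted p was 0.078 without Dicer2 25C replicate 2 and 0.058 without RT replicate 3. The direction of *Obp99a*, *Obp99c*, *Obp83ef* and *Obp19b* held under every alternative run for them.

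Some transcripts of fat body and yolk also differed between the groups. The 5 markers of fat body and yolk (*Yp1*, *Yp2*, *Yp3*, *Lsp2* and *apolpp*) summed to 16379, 25931 and 25118 CPM in the Dicer2 25C control and to 34453, 48053 and 47126 CPM in the RT control. All 5 had positive fold changes and 2 of them passed the adjusted p, *Yp3* (0.032) and *apolpp* (0.027). *Yp1* (0.083), *Yp2* (0.220) and *Lsp2* (0.751) did not pass, and the groups overlapped in *Yp2* and *Lsp2*. The 3 hemocyte markers (*Hml*, *NimC1* and *Sr-CI*) summed to 175, 188 and 301 CPM and to 262, 428 and 428 CPM, with none past the test. The part of these tissues in the levels of *Obp99a*, *Obp99c*, *Obp83ef* and *Obp19b* was not tested.

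A further set of members had group differences that the full test did not call. *Obp83g*, a Minus-C gene (FBgn0046875, chromosome 3R from 6111671 to 6112302, minus strand, 2 exons), was at 6.49, 7.68 and 1.83 CPM in the Dicer2 25C control and at 1.53, 1.87 and 1.46 CPM in the RT control (log2 fold change -1.71, SE 0.49, adjusted p = 0.072). Dicer2 25C replicates 1 and 2 stood above the rest, while replicate 3 lay at the level of the RT libraries. Without that replicate, the log2 fold change was -2.12 (adjusted p = 0.004). Muscle markers were likewise highest in Dicer2 25C replicates 1 and 2. The 3 markers *Mhc*, *Act88F* and *Mlc2* summed to 9252, 9156 and 4622 CPM and to 3911, 5063 and 5005 CPM. Their part in the level of *Obp83g* was not tested.

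*Obp56h*, which has been tied to cuticular hydrocarbons and mating behaviour in males, was at 7.96, 12.3 and 16.9 CPM and at 4.0, 7.21 and 6.67 CPM (log2 fold change -1.06, SE 0.32, adjusted p = 0.079). *Obp56f*, a rare transcript here, was at 1.78, 0.941 and 1.28 CPM and at 0.732, 0.332 and 0.335 CPM (log2 fold change -1.51, SE 0.40, adjusted p = 0.06). Without RT replicate 1 its log2 fold change was -1.97 (adjusted p = 0.028). *Obp56a* was at 12.3, 11 and 18.5 CPM and at 6.35, 9.58 and 9.9 CPM (log2 fold change -0.69, SE 0.25, adjusted p = 0.114). In all 3 genes of this 2R region every RT library lay below every Dicer2 25C library, and none passed the adjusted p with all 6 libraries. *Obp99d*, a Minus-C member, was at 19, 19.8 and 15.4 CPM and at 14.8, 10.9 and 12.6 CPM, also without overlap (log2 fold change -0.50, SE 0.14, adjusted p = 0.072). Its adjusted p was 0.036 without Dicer2 25C replicate 3 and 0.040 without RT replicate 1. *Obp99b*, its neighbour, was at 4.55, 7.41 and 11.8 CPM and at 5.43, 9.15 and 11.8 CPM, with overlapping groups and a spread over 2-fold inside each (log2 fold change 0.15, SE 0.39, adjusted p = 0.83). *Obp56c* was at 0.733, 0.549 and 0.0853 CPM and at 0.244, 0.664 and 0.365 CPM, near the floor of the counts, and its spread inside both groups exceeded the difference between them (adjusted p = 0.976).

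The taste members act in bristles of the proboscis, the pharynx or the legs. *Obp49a*, whose protein suppresses the sweet response when bitter compounds are present, was at 109, 127 and 171 CPM and at 79.3, 105 and 96.8 CPM, lower in all 3 RT libraries but not past the test (log2 fold change -0.53, SE 0.18, adjusted p = 0.106). *Obp57c*, *Obp57b* and *Obp57a* lie side by side on chromosome 2R. *Obp57c* was at 102, 110.4 and 119 CPM and at 121, 130.2 and 134 CPM, higher in all 3 RT libraries, with a difference that did not pass the test (log2 fold change 0.21, SE 0.08, adjusted p = 0.13). *Obp57b*, at 23.8, 22.8 and 23.1 CPM and at 26.2, 24 and 23.2 CPM, had overlapping groups (log2 fold change 0.07, SE 0.07, adjusted p = 0.532). *Obp57a* was at 25.2, 22.6 and 28.5 CPM and at 27.8, 34.3 and 36.7 CPM, and its groups overlapped slightly (log2 fold change 0.37, SE 0.13, adjusted p = 0.113). Without RT replicate 1 its adjusted p was 0.042. *Obp19c*, between *Obp19b* and *Obp19d* on the X chromosome, was at 9.84, 10.3 and 9.38 CPM and at 7.69, 14.2 and 15.7 CPM, and its lowest value was in RT replicate 1 (adjusted p = 0.39). Without RT replicate 1 its log2 fold change was 0.60 (adjusted p = 0.019).

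Over the list of 10 Obps of taste organs, 7 were tested, 1 was lower at the adjusted p (*Obp19b*) and none was higher, a share near the 10.1% of all tested genes. The list summed to 528, 574 and 696 CPM in the Dicer2 25C control and to 475, 584 and 588 CPM in the RT control, and its median log2 fold change was 0.07. *Obp57e*, known with *Obp57d* from taste bristles of the legs and from host plant choice, gave 4, 3 and 6 reads and 4, 5 and 7 reads. Of members in neither list, *Obp18a* was at 26.3, 29.9 and 40.9 CPM and at 44.5, 40.1 and 45.2 CPM (log2 fold change 0.42, SE 0.16, adjusted p = 0.138), and without Dicer2 25C replicate 3 its adjusted p was 0.015. *Obp8a* was at 4.97, 5.53 and 5.76 CPM and at 3.51, 6.52 and 6.61 CPM, with overlapping groups.

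By class, all 7 Minus-C members and 1 of the 13 Plus-C members passed the filter. Of the 7 Minus-C members, 2 were higher in the RT control at the adjusted p (*Obp99a* and *Obp99c*) and none was lower, where 10.1% of all tested genes passed, and 5 had positive fold changes. They summed to 772, 836 and 1072 CPM in the Dicer2 25C control and to 1153, 1320.4 and 1312 CPM in the RT control, and *Obp44a* and *Obp99c* made up most of each sum. The Plus-C member that passed was *Obp49a*. Of the other 12, *Obp47b*, *Obp50b*, *Obp50c* and *Obp93a* share most or all of their exon bases with another gene, on either strand, so that their low counts do not show a lack of expression. The pair of double-domain genes both passed, with sums of 8.06, 7.84 and 9.64 CPM and 10.3, 13.5 and 13.8 CPM.

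Of the 10 members known from the antenna, 5 were over 2-fold higher in Dicer2 25C replicate 3 than in every other library. *Obp83a* (OS-F; FBgn0011281, chromosome 3R from 5972155 to 5975245, minus strand, 6 exons) and *Obp83b* (OS-E; FBgn0010403, chromosome 3R from 5976177 to 5976817, minus strand, 3 exons) are made by support cells of trichoid and intermediate sensilla of the antenna. *Obp83a* gave 10, 15 and 516 reads in the Dicer2 25C control and 27, 24 and 8 reads in the RT control, or 0.523, 0.588 and 22 CPM and 0.824, 0.569 and 0.244 CPM. *Obp83b* gave 8, 13 and 292 reads and 18, 22 and 8 reads, or 0.419, 0.51 and 12.5 CPM and 0.549, 0.521 and 0.244 CPM. In 5 of the 6 libraries both genes were thus under 1 CPM, while in replicate 3 *Obp83a* was 26.7 times and *Obp83b* 22.7 times the highest of the other 5. Their fitted log2 fold changes of -3.81 (SE 1.5, adjusted p = 0.142) and -3.33 (SE 1.34, adjusted p = 0.148) rested on that library. Without it, they were -0.03 (adjusted p = 0.974) and -0.08 (adjusted p = 0.913).

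A further 3 antennal members that did not pass the filter had the same pattern in their reads. *Obp19a* gave 2, 6 and 136 reads in the Dicer2 25C control and 2, 6 and 6 reads in the RT control, and its CPM in Dicer2 25C replicate 3 was 24.7 times the highest of the others. *Obp59a*, which is needed for sensing humidity, gave 1, 3 and 30 reads and 1, 0 and 0 reads, 10.9 times the highest of the others. *Obp84a*, a gene of coeloconic sensilla, gave 1, 2 and 20 reads and 2, 1 and 1 reads, likewise 10.9 times. Of the exon bases of *Obp84a*, 81.2% lie opposite *Dtwd2*, and 22.2% of those of *Obp59a* lie opposite *CG30259*.

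**Figure D3:**
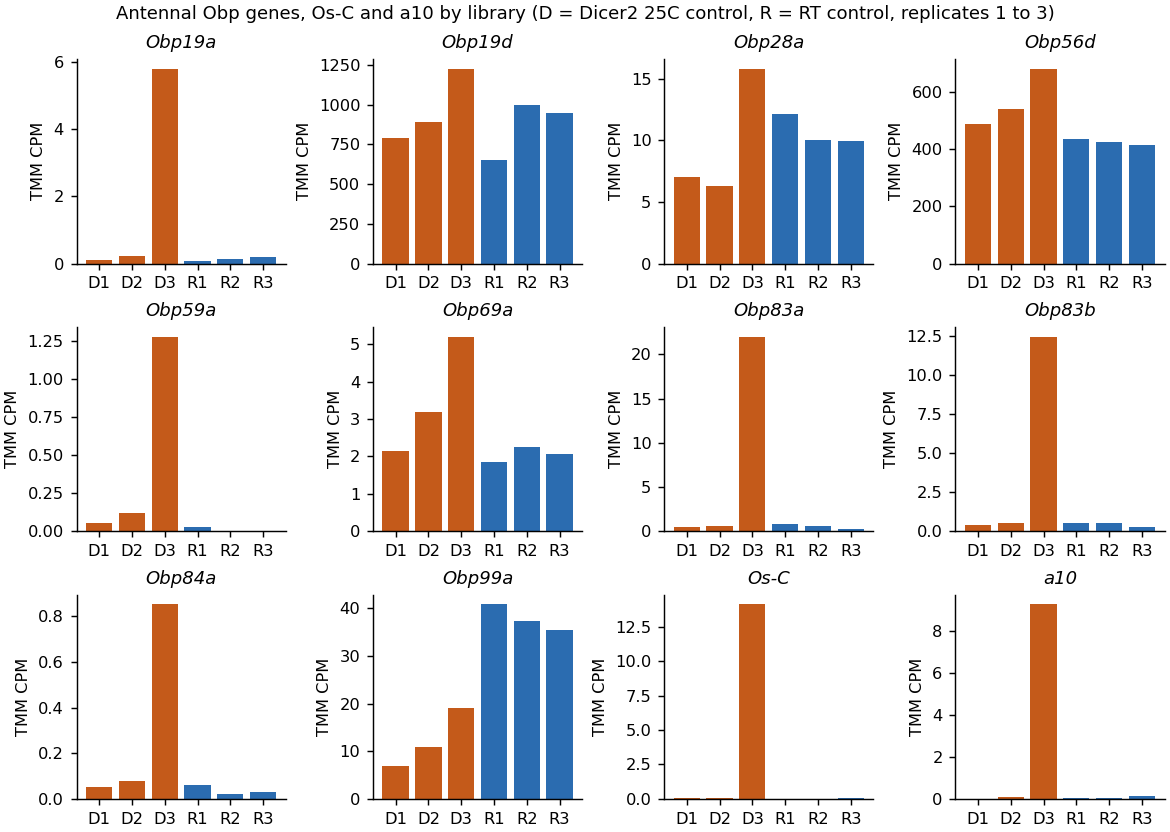
TMM CPM in each library for the 10 antennal Obp genes and for *Os-C* and *a10*, other secreted proteins of the antenna; bars are single libraries (D1 to D3, Dicer2 25C control replicates 1 to 3; R1 to R3, RT control replicates 1 to 3), each panel with its own axis from 0. Replicate 3 of the Dicer2 25C control holds the highest bar in every panel but that of *Obp99a*, and in 7 panels the other 5 libraries are close to 0.

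Antennal members that were present in all libraries were also highest in that replicate, but by less. *Obp28a*, the main Obp of large basiconic sensilla, was at 7.07, 6.31 and 15.8 CPM in the Dicer2 25C control and at 12.2, 10 and 9.99 CPM in the RT control. Its test turned on the same library, with a log2 fold change of 0.14 (adjusted p = 0.82) over all libraries and of 0.68 (adjusted p = 0.025) without it. *Obp69a*, tied to the response to a male pheromone, was at 2.15, 3.17 and 5.2 CPM and at 1.86, 2.25 and 2.07 CPM (log2 fold change -0.77, SE 0.31, adjusted p = 0.153). Without that library its log2 fold change was -0.38 (adjusted p = 0.275). *Obp19d* and *Obp56d* were highest there too, with the values given above. Of the 10 antennal members, 9 were highest of the 6 libraries in Dicer2 25C replicate 3, the exception being *Obp99a*, and 5 were over 2-fold above every other library. Of the 10 taste members, 4 were highest there and none by over 2-fold. Of the 10 antennal members, 7 were tested, 1 was higher at the adjusted p (*Obp99a*) and none was lower, again near the 10.1% of all tested genes.

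Genes that work beside Obps in olfactory sensilla gave the same order of libraries in part. *lush*, the Obp that binds the pheromone cis-vaccenyl acetate and whose symbol lacks the prefix, was at 1.2, 0.862 and 4.05 CPM in the Dicer2 25C control and at 0.458, 1.47 and 1.31 CPM in the RT control. *Os-C* was at 0.0523, 0.0784 and 14.1 CPM and at 0, 0 and 0.0609 CPM. *a10* was at 0, 0.0784 and 9.3 CPM and at 0.0305, 0.0474 and 0.152 CPM. All 3 stood over 2-fold higher in Dicer2 25C replicate 3 than in any other library. *Jhedup*, a carboxylesterase, was at 0.157, 0.118 and 11.3 CPM and at 2.29, 1.66 and 2.1 CPM, so that it also differed between the other libraries. *Orco*, the shared coreceptor of olfactory receptors, was at 3.56, 3.64 and 8.27 CPM and at 5.49, 5.0 and 5.02 CPM, a smaller excess. Of the 18 such genes measured, 12 were highest in that library and 6 by over 2-fold. Those not highest there were *Snmp1*, *Est-6*, *Gr63a*, *ppk25*, *CheB42a* and *CheA75a*. *Snmp1* was at 13.6, 14.7 and 13.9 CPM and at 14.8, 15.5 and 14.5 CPM. *Gr63a* was at 0.576, 0.392 and 0.213 CPM and at 0.275, 0.0474 and 0.244 CPM. Only 13 of the 18 passed the filter and were tested, and none of these passed the adjusted p between the groups.

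Over all 10187 tested genes, 13 (0.128%) were over 2-fold higher in Dicer2 25C replicate 3 than in each other library, and 2 of the 28 tested members were among them. In a count chosen after the values were seen, over the 11330 genes with at least 20 reads in all, 37 (0.327%) met this rule, and 5 of them were members, of 32 with that many reads. *Obp59a* and *Obp84a* reached 20 reads only through Dicer2 25C replicate 3 itself. The 2 shares therefore cannot be set against each other as a test. No other library held a tested member over 2-fold above all the rest. Over all tested genes, more met this rule in RT replicate 1, with 178 (1.75%). The numbers were 46 in Dicer2 25C replicate 1, 10 in Dicer2 25C replicate 2, 1 in RT replicate 2 and 13 in RT replicate 3. The sum of the 11 antennal markers measured was 14.7, 15 and 45.5 CPM in the Dicer2 25C control and 25.7, 18.7 and 19.9 CPM in the RT control, and 10 of the 11 were highest in Dicer2 25C replicate 3. Only 3 of the 11 passed the filter, and some of these leads rested on few reads. *Or22a* gave 4 reads there and 4 in RT replicate 2, and *Or42b* gave 6 there and 6 in Dicer2 25C replicate 2. Of the 5 eye markers, *ninaE* and *Arr2* were highest in that library, while *ninaC*, *trp* and *inaD* were lower there than in the other Dicer2 25C libraries. The neuron markers had their lowest sum there, 3126 CPM against 3153 to 4248 CPM, and the muscle markers summed to less than in the other Dicer2 25C libraries. The part of antennal tissue in the Obp values of this library was not tested.

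Replicates of a group differed as follows. In the Dicer2 25C control, 9 of the 28 members differed by over 2-fold between the highest and the lowest replicate, against 6.02% of all tested genes. The median ratio of highest to lowest was 1.55. Between the replicates that remain when 1 of the 3 is left out, 5 members differed by over 2-fold without replicate 1 (2.96% of all genes), 9 without replicate 2 (4.56%) and none without replicate 3 (2.1%). In the RT control, 6 members differed by over 2-fold, against 7.16% of all genes, and the median ratio was 1.32. Replicate 3 was the highest Dicer2 25C library for 21 of the 28 members, and replicate 1 was the lowest RT library for 17. When Dicer2 25C replicate 3 was left out, 8 members passed the adjusted p, against 18.6% of all genes in that fit. Of these, 5 were higher in the RT control (*Obp18a*, *Obp28a*, *Obp83ef*, *Obp99a* and *Obp99c*) and 3 were lower (*Obp19b*, *Obp83g* and *Obp99d*). By the fold change threshold as well, 4 were called (*Obp83ef*, *Obp83g*, *Obp99a* and *Obp99c*), against 4.19% of all genes. The negative log2 fold changes of *Obp49a*, *Obp56a*, *Obp56d* and *Obp56h* shrank in that fit to -0.33, -0.43, -0.27 and -0.77, and none of them passed.

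Obp genes lie in groups on the chromosomes, and neighbours differed widely in level. Of the 51 members, 29 lie on chromosome 2R, 12 on 3R, 6 on X and 2 each on 2L and 3L. With gaps of at most 10 kilobases, 31 members formed 9 groups and 20 stood alone. The largest group, *Obp56a* to *Obp56f*, spans 16.3 kilobases of 2R (19697723 to 19713976). It holds *Obp56e* at 1093 CPM per kilobase over all 6 libraries and *Obp56b*, which gave 3 and 2 reads in RT replicates 2 and 3 and none elsewhere. On the X chromosome, *Obp19d* at 833 CPM per kilobase lies in a group of 5.24 kilobases (20415744 to 20420979) with *Obp19a* at 1.69. Most of the level of *Obp19a* came from Dicer2 25C replicate 3. *Obp83a* and *Obp83b* lie within 4.66 kilobases on 3R (5972155 to 5976817), and both were high in the same library. Further along 3R, *Obp83cd*, *Obp83ef* and *Obp83g* lie within 4.17 kilobases, and there *Obp83ef* and *Obp83g* had fold changes of opposite sign.

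**Figure D4:**
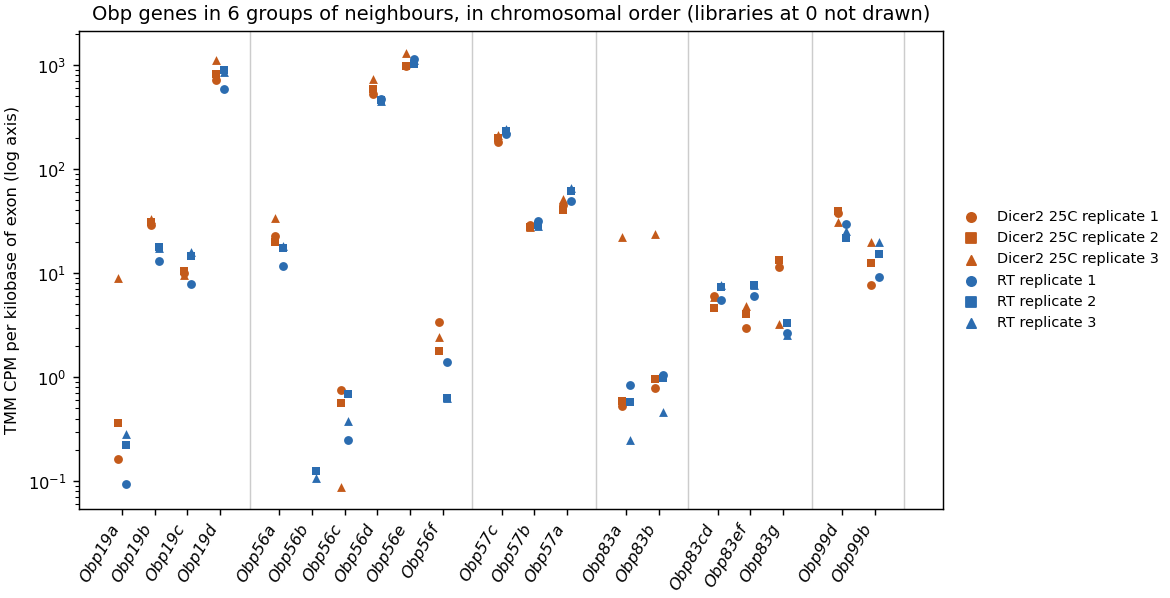
TMM CPM per kilobase of exon on a log axis for Obp genes in 6 groups of chromosomal neighbours, each point being 1 library (colours for the control groups, shapes for replicates 1 to 3; libraries at 0 are not drawn). Neighbours such as *Obp19a* and *Obp19d* or *Obp56b* and *Obp56e* sit far apart in level, while *Obp83a* and *Obp83b* share a high value in Dicer2 25C replicate 3.

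The 23 members that did not pass the filter gave few or no reads in most libraries. In Dicer2 25C replicate 3, *Obp19a*, *Obp59a* and *Obp84a* gave 136, 30 and 20 reads. Of the 23 members, 5 were at 0 in all 6 libraries (*Obp22a*, *Obp50b*, *Obp50c*, *Obp51a* and *Obp57d*). On unadjusted library totals, this allows a level of up to 0.0706 to 0.161 CPM depending on the library. For 3 of the 5 a count of 0 cannot be read as absence, since HTSeq leaves uncounted a read that lies equally on more than 1 gene. *Obp50b* and *Obp50c* share all exon bases with each other in BDGP6.54, and *Obp57d* lies wholly within exons of *Cpr57A* on the same strand. *Obp22a* and *Obp51a* are known as seminal fluid proteins of males, and the heads were from females. The 8 markers of the male accessory gland, which is not part of the head, summed to at most 0.419 CPM in any library. In head RNA they cannot tell males from females. The part of sex in the counts of *Obp22a* and *Obp51a* was not tested. Of the 18 others, 12 gave 1 to 10 reads over the 6 libraries. The remaining 6 were *Obp19a*, *Obp59a* and *Obp84a*, described above, *Obp57e*, *Obp85a* with 6, 4 and 2 reads and 1, 3 and 2 reads, and *Obp50e* with 0, 2 and 3 reads and 2, 5 and 4 reads. No member of the groups *Obp50a* to *Obp50e* or *Obp58b* to *Obp58d* with *Obp59a* passed the filter.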

How the data were processed

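RNA from female heads was sequenced by the authors in the control groups with the TruSeq stranded mRNA kit, as single-end reads of 100 bases. The authors trimmed reads with Trimmomatic (version 0.36), aligned them with TopHat2 (version 2.1.0 in the submitters' processing notes and 2.1.1 in the study's methods) to release 6.08 of the fly genome and transcriptome, and deposited HTSeq (version 0.6.1) counts of reads per gene, not normalized. Strand and multiple-alignment settings are not given in the sources used here. Knockdown libraries were not analysed here.

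Members were matched by the symbol that BDGP6.54 gives each FlyBase identifier, with 17253 of 17559 identifiers found, and exon lengths and overlaps were read from the same annotation. TMM CPM were computed from the deposited counts. Groups were taken from the sample titles and compared by edgeR's quasi-likelihood test (version 4.0.16, R 4.3.3) with filterByExpr, Benjamini-Hochberg adjustment over all tested genes and no replicate block. SE is the size of the log2 fold change divided by the root of F. The fit was tested on simulated data. Members with a mean over 10 CPM, an adjusted p under 0.05 or replicates over 2-fold apart in a group are given by library, and the others by counts or in short. The alternatives were RLE, upper quartile and library-total scaling, DESeq2 (version 1.42.0), the likelihood ratio test, no filter, a minimum of 10 counts per library, a replicate block and each library left out. The wider count of genes high in Dicer2 25C replicate 3 and the replicate spread with a library left out were chosen after seeing the data. The members, gene lists and tests were chosen with earlier results of these data known. No library was a copy of another.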

Additional observations from a re-analysis of the deposited data

How the results depend on the processing

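Of 387 values of single members under the alternatives, 322 kept their direction and their side of the threshold, 17 fell short of it, 25 passed it and 23 changed sign, all 23 in members that did not pass the test with all 6 libraries. The count of called members was 1 (*Obp99a*). It was 1 with RLE scaling, no filter or at least 10 counts in every library, 2 with upper quartile scaling (*Obp56f*, *Obp99a*), 4 with library totals only (*Obp19b*, *Obp56f*, *Obp83g*, *Obp99a*), 5 with DESeq2 (*Obp56f*, *Obp56h*, *Obp59a*, *Obp83g*, *Obp99a*), 5 with the likelihood ratio test (*Obp56f*, *Obp56h*, *Obp83a*, *Obp83g*, *Obp99a*) and 4 with no fold change threshold. DESeq2 gave no adjusted p for *Obp83a* and *Obp83b*, which are left out of its count. Most reads of *Obp59a* and *Obp83a*, called by DESeq2 and by the likelihood ratio test, came from Dicer2 25C replicate 3 alone (30 and 516 reads). Leaving out 1 library gave 0 to 4 members: none without Dicer2 25C replicate 1 or 2 or RT replicate 3, and 4 without Dicer2 25C replicate 3. It gave 2 without RT replicate 1 (*Obp56f*, *Obp99a*) and 1 without RT replicate 2 (*Obp19b*). Over all genes, 287 were called (2.82% of those tested), 291 with RLE scaling, 309 with upper quartile scaling and 324 with library totals only. With no filter 334 were called, and 238 with at least 10 counts in every library. DESeq2 called 470, the likelihood ratio test 495, the adjusted p with no fold change threshold 1030, and fits with a library left out 33 to 438. Replicate numbers share only a number (correlations of deviations -0.073, -0.0059 and 0.0078), and no number marks a batch in the labels. With the replicate block, 91 genes were called and 1 member, *Obp56h*, in place of *Obp99a* (adjusted p = 0.049 and 0.073), and the adjusted p of *Obp83ef* was 0.056. The summed level was 4830 and 4996 CPM per kilobase in the Dicer2 25C and RT controls by length, a change of unit.

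The sign changed for *Obp56e* with RLE scaling (0.00049), DESeq2 (0.011), no filter (0.028) and the replicate block (0.011), for *Obp57b* with library totals (-0.025), and for *Obp8a* with upper quartile scaling (-0.013), library totals (-0.057) and the replicate block (-0.0040). With a library left out, log2 fold changes ran over -0.30 to 0.04 for *Obp19d* (0.037 without Dicer2 25C replicate 3), -0.10 to 0.68 for *Obp28a*, -0.54 to 0.42 for *Obp56c*, -0.07 to 0.15 for *Obp56e*, -0.11 to 0.28 for *Obp8a* and -0.12 to 0.55 for *Obp99b*. The cause of these changes was not tested. Low reads limit *Obp56c*, *Obp56f* and the members that did not pass the filter, and with 3 libraries in a group a single library can decide a member's test.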
